A study of Mus musculus with 6 samples.

Results

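Reactive gliosis is the response of retinal glia to injury, and 10 genes that mark it were followed here in cells sorted from the retina after optic nerve crush (ONC). They were *Gfap*, *Vim*, *Nes*, *Lcn2*, *Serpina3n*, *Cp*, *Timp1*, *Edn2*, *Osmr* and *Cd44*, chosen by name out of 55573 genes in the count table, and all 10 were found and passed the filter on low counts. The control group (AAV2-*GFP*) and the *Ezh2* overexpression group (AAV2-*Ezh2*) each had 3 RNA-Seq libraries. All mice were adult C57BL/6J animals that received the virus, an adeno-associated virus of serotype AAV2, in the vitreous body. The nerve was crushed 2 weeks after the injection in both groups, and live CD90.2-positive cells were sorted 3 days after the crush, so no uninjured retina entered the comparison. The control therefore also carried virus and crush, and the values below are differences between the Ezh2 and GFP groups, not the response to the crush itself. Virus of this serotype is not restricted to retinal ganglion cells (RGCs), and which cells of these libraries carried it was not measured. Whether the libraries of a group came from separate mice is not stated in the sources used here, so p values measure the spread between libraries only.

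In the healthy retina, Müller glia span the tissue and keep ions, water and glutamate in balance, and astrocytes lie among the axons at its inner surface. After injury these cells change shape and assemble intermediate filaments, with glial fibrillary acidic protein (GFAP) as the classic sign in Müller glia. Cytokines of the IL-6 family act on them through gp130 receptors and the transcription factor STAT3, and stressed photoreceptors can signal to Müller glia with endothelin 2. Reactive glia also secrete acute-phase proteins and protease inhibitors that act on the matrix and on immune cells.

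With *Ezh2* overexpression, 4 of the 10 genes were called higher and 0 were called lower. The called genes were *Gfap*, *Serpina3n*, *Timp1* and *Lcn2*, at 1.58 to 2.01 times the control level. *Vim*, *Cp*, *Osmr* and *Cd44*, all abundant in these cells, were not called, and *Nes* was lower by less than the fold threshold. Calls required a difference of more than 1.5-fold and a p under 0.05 from edgeR's quasi-likelihood F test, Benjamini-Hochberg adjusted over all genes (the adjusted p below). These counts come from GFP replicates 1 to 3 and Ezh2 replicates 1 and 2, since the study excluded 1 Ezh2 library, inferred to be Ezh2 replicate 3. Among all 20241 genes tested in these 5 libraries, 2.45% were called higher and 1.27% lower. With all 6 libraries the same 4 genes were called higher and 0 lower, against 1.6% higher and 0.811% lower of all 19732 genes tested.

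The call of *Lcn2* depended on how edgeR estimated the spread. An option of edgeR that gives less prior weight to genes with unusual spread, tried after the values were known, took the adjusted p of *Lcn2* from 0.000118 to 0.113 in the 5 libraries and that of *Edn2* from 0.054 to 0.038. With this option *Edn2* took the place of *Lcn2* among 4 called genes. Thus 3 genes, *Gfap*, *Serpina3n* and *Timp1*, were called in both library sets and with both options.

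Library totals ranged from 30569933 to 35971192 counts, and a count of 0 allowed up to 0.0834 to 0.0981 CPM (counts scaled to the library total), by counting error only. Ezh2 replicate 3 stood apart from the other libraries at 76.49 on the first principal component (46.6% of the variance), where the other 5 lay between -34.98 and 10.67. *Ezh2* itself, the histone methyltransferase of the Polycomb complex PRC2, lay between 28.8 and 34.6 CPM in the GFP libraries and between 65.3 and 104.8 CPM in the Ezh2 libraries. The cells are labelled as RGCs, but RGC genes were low in them and Müller glia genes were high. Per kilobase of exon, the median GFP level of 10 Müller glia markers was 323 CPM per kb and that of 7 RGC markers was 2.26 CPM per kb. *Pou4f1*, a transcription factor that defines RGCs and the lowest of these RGC markers, lay at 0.0708 ± 0.0653 CPM per kb (SD, n = 3). *Glul*, the glutamine synthetase of Müller glia and the highest of their markers, reached 2940 ± 57.3 CPM per kb (SD, n = 3). At the other ends, *Thy1*, the gene of the CD90 protein used for the sort, was the highest RGC marker at 30.1 ± 0.911 CPM per kb (SD, n = 3). *Sox9* was the lowest Müller glia marker at 37.0 ± 2.16 CPM per kb (SD, n = 3). The samples are therefore called sorted retinal cells below. In such bulk samples, fewer cells of a type and less RNA per cell cannot be told apart.

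The 250 bases before the RefSeq transcription start (GRCm38.p6) are shown, 5′ to 3′ on the gene's strand, for the 3 genes called under both options and for *Nes*, the member past the adjusted p threshold in the other direction. Capitals mark CG dinucleotides, the sites of CpG methylation.
*Gfap* (chr11:102897201-102897450, minus strand): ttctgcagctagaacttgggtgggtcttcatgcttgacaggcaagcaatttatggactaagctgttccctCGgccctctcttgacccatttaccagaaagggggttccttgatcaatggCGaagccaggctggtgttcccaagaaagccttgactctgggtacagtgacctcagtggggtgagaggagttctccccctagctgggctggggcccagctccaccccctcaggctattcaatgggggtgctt
*Serpina3n* (chr12:104406458-104406707, plus strand): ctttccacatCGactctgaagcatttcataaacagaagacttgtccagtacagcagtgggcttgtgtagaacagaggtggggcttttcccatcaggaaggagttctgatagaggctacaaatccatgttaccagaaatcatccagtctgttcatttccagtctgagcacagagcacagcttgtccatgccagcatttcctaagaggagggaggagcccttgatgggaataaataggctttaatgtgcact
*Timp1* (chrX:20869916-20870165, plus strand): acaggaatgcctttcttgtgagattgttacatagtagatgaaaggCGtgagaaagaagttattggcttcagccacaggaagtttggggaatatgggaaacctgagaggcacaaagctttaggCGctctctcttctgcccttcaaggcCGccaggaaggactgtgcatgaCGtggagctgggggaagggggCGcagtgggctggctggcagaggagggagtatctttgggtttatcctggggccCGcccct
*Nes* (chr3:87970843-87971092, plus strand): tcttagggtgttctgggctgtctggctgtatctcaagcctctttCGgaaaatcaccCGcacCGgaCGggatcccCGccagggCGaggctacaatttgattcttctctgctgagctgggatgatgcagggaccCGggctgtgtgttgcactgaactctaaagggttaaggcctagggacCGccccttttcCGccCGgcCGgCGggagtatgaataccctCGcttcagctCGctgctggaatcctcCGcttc
In the full RefSeq window, which adds 50 bases after the start, *Gfap*, *Serpina3n* and *Lcn2* each held 3 CG dinucleotides, *Timp1* held 8, *Nes* 18 and *Osmr* 22. Of the remaining members, *Cp* held 2 and 4 at its 2 starts, *Cd44* and *Edn2* each held 6 and *Vim* held 11. The median over 32851 promoter windows of mouse genes was 7, with quartiles of 3 and 20. The STAT motif TTCNNNGAA, which reads the same on both strands, occurred in 1 of the 10 members, *Gfap*, from 2 bases before the start, and in 8.3% of all windows. The AP-1 motif TGANTCA, also the same on both strands and not overlapping the STAT match, occurred in *Osmr* and at 1 of 2 starts of *Cp*, and in 7.81% of all windows. These matches describe sequence only, and the motifs were picked with the expression values known.

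Among the intermediate filaments, *Gfap* was higher, *Vim* differed little and *Nes* was lower. *Gfap* (ENSMUSG00000020932, chromosome 11, 102887336 to 102900912, GRCm38) measured 415, 413 and 426 CPM in the GFP libraries and 745, 919 and 719 CPM in the Ezh2 libraries, here and below in the order of replicates 1 to 3. Every Ezh2 library lay well above every GFP library, and the GFP libraries were close together. The log2 fold change was 1.01 ± 0.07 (SE), an increase to 2.01 times the control, with an edgeR adjusted p of 7.91e-08. With all 6 libraries it was 0.96 ± 0.09 (SE, edgeR adjusted p = 0.00194).

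*Vim* (ENSMUSG00000026728, chromosome 2, 13573927 to 13582826) encodes vimentin, the filament protein that Müller glia make even at rest. It measured 1254, 1194 and 1213 CPM in the GFP libraries and 1276, 1377 and 1339 CPM in the Ezh2 libraries. The groups did not overlap, but the gap between the nearest libraries was small. The difference of 0.13 ± 0.05 (SE) on the log2 scale did not pass the test (edgeR adjusted p = 0.0817, and 0.145 with all 6).

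*Nes* (ENSMUSG00000004891, chromosome 3, 87971078 to 87980451) encodes nestin, a filament protein of progenitor cells that injured Müller glia can make again. Its level was 136.5, 147 and 136 CPM in the GFP libraries and 111, 115 and 85.0 CPM in the Ezh2 libraries. All Ezh2 libraries were below all GFP libraries, and Ezh2 replicate 3 was the lowest. On the log2 scale *Nes* differed by -0.30 ± 0.06 (SE, edgeR adjusted p = 0.00172), a difference smaller than 1.5-fold. It was the 1 member past the adjusted p threshold in the lower direction, as were 7.07% of all genes tested. In all 6 libraries it was -0.40 ± 0.10 (SE, edgeR adjusted p = 0.0654).

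The different behavior of the filament genes was also seen within each library. The ratio of *Gfap* to *Vim* counts was 0.331, 0.346 and 0.351 in GFP replicates 1 to 3 and 0.584, 0.668 and 0.537 in Ezh2 replicates 1 to 3. The ratio of *Gfap* to *Nes* counts went from 2.99 ± 0.171 (SD, n = 3) to 7.72 ± 0.892 (SD, n = 3) without overlap, and these ratios, which do not depend on library scaling, were chosen after the values were seen and carry no test. Of 8 other filament genes and linkers, 7 were tested and 0 were called. The one with the largest log2 fold change, *Prph* (peripherin, a filament of neurons with peripheral axons), was at 1.16, with an edgeR adjusted p of 0.0721.

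**Figure D1:**
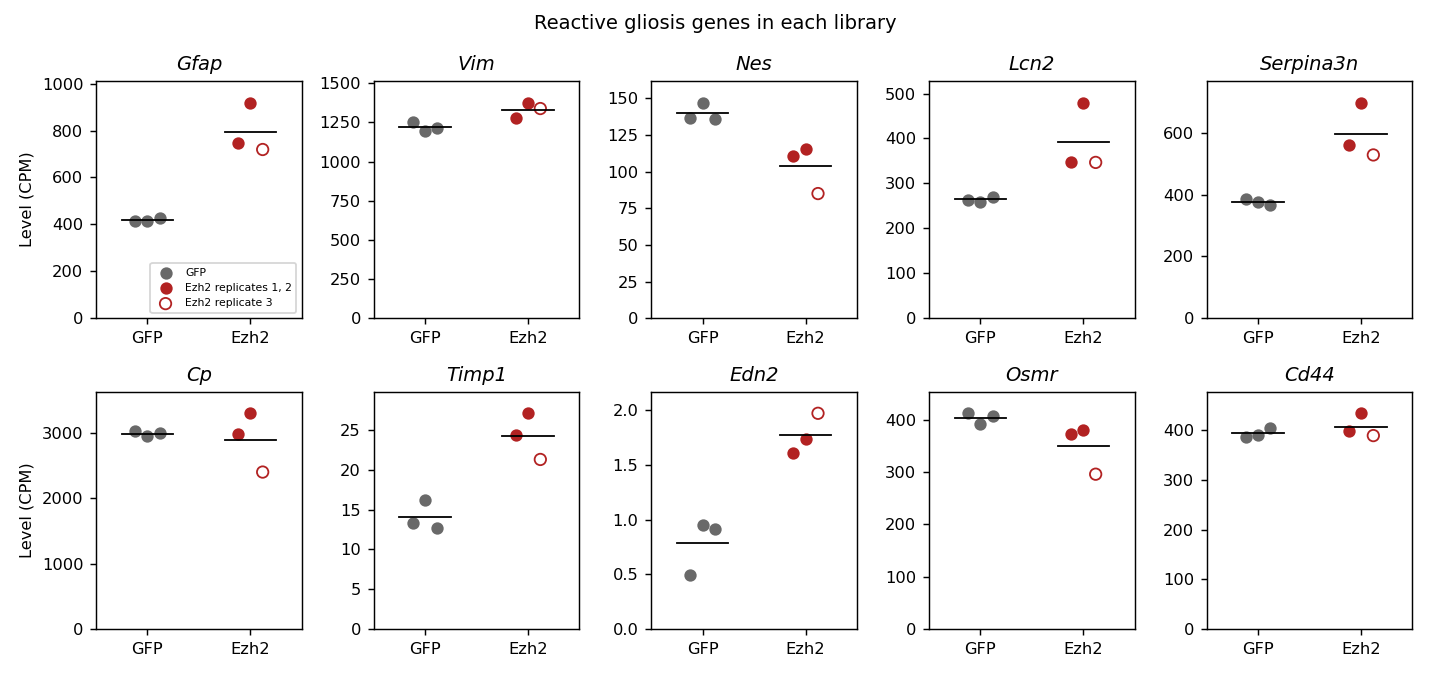
Level in CPM (vertical axes, each from 0) of the 10 reactive gliosis genes in the 3 GFP libraries (grey) and the 3 Ezh2 libraries (red, with replicate 3 open). Lines are group means over 3 libraries, and 6 genes (*Gfap*, *Vim*, *Lcn2*, *Serpina3n*, *Timp1*, *Edn2*) lie above the GFP libraries in every Ezh2 library.

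The secreted acute-phase proteins split as well, since *Serpina3n* and *Lcn2* were higher and *Cp* was not. *Serpina3n* (ENSMUSG00000021091, chromosome 12, 104406729 to 104414329) encodes a serine protease inhibitor that is a common marker of reactive astrocytes. It measured 387, 376 and 368 CPM in the GFP libraries and 560.2, 698 and 529 CPM in the Ezh2 libraries. No Ezh2 library fell within the GFP range, and Ezh2 replicate 2 was the highest. On the log2 scale the increase of *Serpina3n* was 0.75 ± 0.07 (SE, edgeR adjusted p = 3.17e-06), and 0.70 ± 0.10 (SE, edgeR adjusted p = 0.00958) in all 6 libraries. Without Ezh2 replicate 2 it was 0.57 in the 5 libraries (edgeR adjusted p of 1.04e-06) and 0.58 in the 6, below the fold threshold of 0.585 on the log2 scale in both. With any 1 GFP library left out of the 6, its edgeR adjusted p was 0.0692 to 0.0828.

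*Lcn2* (ENSMUSG00000026822, chromosome 2, 32384633 to 32388252) encodes lipocalin 2, which binds iron-carrying siderophores and is released by reactive astrocytes and by myeloid cells. Its level was 263, 259 and 271 CPM in the GFP libraries and 348.5, 479.8 and 347 CPM in the Ezh2 libraries. The groups did not overlap, yet Ezh2 replicate 2 stood above the other Ezh2 libraries. On the log2 scale the increase of *Lcn2* was 0.66 ± 0.09 (SE, edgeR adjusted p = 0.000118), or ± 0.18 (SE) and 0.113 with the option described above. In all 6 libraries it was 0.61 ± 0.12 (SE), with edgeR adjusted p values of 0.0299 and 0.0262 under the main fit and the option. Without Ezh2 replicate 2 it fell to 0.40 in the 5 libraries, with an edgeR adjusted p of 9.72e-05, and to 0.44 in the 6, and was not called in either. With any 1 GFP library left out of the 6, its edgeR adjusted p was 0.149 to 0.155.

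*Cp* (ENSMUSG00000003617, chromosome 3, 19957054 to 20009145) encodes ceruloplasmin, a copper-carrying ferroxidase that Müller glia make. It measured 3025, 2954 and 2997 CPM in the GFP libraries and 2983, 3302 and 2402 CPM in the Ezh2 libraries. The Ezh2 libraries lay on both sides of the control values, with replicate 3 the lowest and replicate 2 the highest. For *Cp* the log2 fold change was 0.08 ± 0.05 (SE, edgeR adjusted p = 0.291), and -0.01 ± 0.09 (SE, edgeR adjusted p = 0.95) in all 6 libraries. An exon stretch of 108 bases of *Cp* overlaps the antisense gene *Hps3*, and whether counting used the strand is not stated in the sources used here.

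*Timp1* (ENSMUSG00000001131, chromosome X, 20870166 to 20874735) encodes a secreted inhibitor of matrix metalloproteinases that reactive glia release. It was far less abundant, at 13.2, 16.2 and 12.6 CPM in the GFP libraries and 24.4, 27.1 and 21.3 CPM in the Ezh2 libraries. Again all Ezh2 libraries were above all GFP libraries. *Timp1* rose on the log2 scale by 0.89 ± 0.11 (SE, edgeR adjusted p = 4.03e-05), and 0.83 ± 0.13 (SE, edgeR adjusted p = 0.0157) in all 6 libraries. Without GFP replicate 1 or GFP replicate 3 the value in the 6 libraries was 0.79 or 0.76, each with an edgeR adjusted p of 0.107.

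Of the signaling genes, the ligand *Edn2* had few counts and the receptors differed little. *Edn2* (ENSMUSG00000028635, chromosome 4, 120161206 to 120167360), which encodes endothelin 2, had 15, 30 and 28 counts in the GFP libraries and 52, 61 and 71 counts in the Ezh2 libraries. These correspond to 0.491, 0.948 and 0.911 CPM against 1.61, 1.74 and 1.97 CPM, again without overlap. For *Edn2* the log2 fold change was 1.11 ± 0.37 (SE, edgeR adjusted p = 0.054), or 0.038 with the option, and in all 6 libraries it was 1.22 ± 0.33 (SE, edgeR adjusted p = 0.0725), or 0.0636 with the option.

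*Osmr* (ENSMUSG00000022146, chromosome 15, 6813577 to 6874969) encodes the receptor chain that binds oncostatin M together with gp130. Its level was 412, 392 and 407 CPM in the GFP libraries and 373, 381 and 296 CPM in the Ezh2 libraries. Every Ezh2 library was below every GFP library, with replicate 3 the farthest. For *Osmr* the log2 fold change was -0.09 ± 0.05 (SE, edgeR adjusted p = 0.247), and -0.17 ± 0.08 (SE, edgeR adjusted p = 0.242) in all 6 libraries. *Cd44* (ENSMUSG00000005087, chromosome 2, 102811141 to 102901665), the cell surface receptor for hyaluronan, measured 387, 390 and 405 CPM in the GFP libraries and 399, 434 and 389 CPM in the Ezh2 libraries. The groups overlapped, and the log2 fold change was 0.09 ± 0.05 (SE, edgeR adjusted p = 0.27), and 0.09 ± 0.06 (SE, edgeR adjusted p = 0.398) in all 6 libraries.

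**Figure D2:**
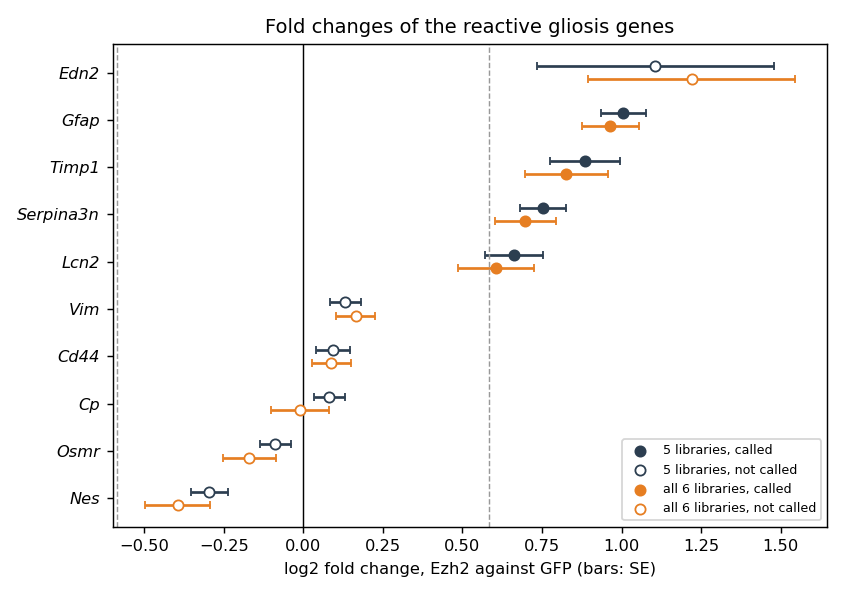
The log2 fold change of each member, Ezh2 against GFP (horizontal axis), with its SE, in the 5 libraries (dark) and in all 6 (orange). Filled points were called in the main fit, dashed lines mark a fold of 1.5 in either direction, and *Edn2* has the largest value and the widest error at 1.11 ± 0.37 (SE).

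Over the 10 genes, 6 were above all GFP libraries in every Ezh2 library and 2 (*Nes* and *Osmr*) were below. Among all genes tested in the 6 libraries, 14.9% were above and 19.3% below in this way. The median log2 fold change of the 10 genes was 0.40 in the 5 libraries and 0.39 in all 6, whereas the medians over all tested genes were -0.01 and 0.01. This median lay between a group at 0.66 to 1.11 and a group at -0.30 to 0.13, and no member had a value near it.

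The members spanned a wide range of levels in the control cells. Per kilobase of exon, *Cp* was first at 313 ± 3.73 CPM per kb (SD, n = 3), followed by *Vim* at 257 ± 6.44 and *Serpina3n* at 183 ± 4.59 CPM per kb. *Lcn2* at 101 ± 2.30 and *Gfap* at 99.1 ± 1.69 CPM per kb came next, and their ranges over the GFP libraries overlapped. Below them were *Cd44* at 58.2, *Osmr* at 33.3, *Nes* at 21.8, *Timp1* at 15.8 and *Edn2* at 0.536 CPM per kb, each apart from its neighbors in that order. In the Ezh2 libraries the order changed in places. *Serpina3n* at 289 ± 43.7 CPM per kb stood before *Vim* at 281 ± 10.8 CPM per kb (SD, n = 3), a difference within their spread. *Gfap* at 188 ± 25.8 CPM per kb stood before *Lcn2* at 149 ± 29.1 CPM per kb (SD, n = 3), where the ranges of 171 to 218 and 132 to 183 CPM per kb still overlapped. *Timp1* at 27.3 ± 3.26 CPM per kb stood before *Nes* at 16.2 ± 2.54 CPM per kb (SD, n = 3), with no overlap between 24.0 to 30.5 and 13.3 to 18.0 CPM per kb.

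Genes with a profile like that of *Gfap* were looked for among 12599 other genes with at least 5 CPM on average. By Pearson's r of log2 CPM over the 6 libraries, the nearest were *Dhrs4* (a short-chain dehydrogenase, 0.9975), *Hpse* (heparanase, 0.9971), *Ctsd* (the lysosomal protease cathepsin D, 0.9960), *Cdkn1c* (a cyclin-dependent kinase inhibitor, 0.9956) and *Nptx1* (neuronal pentraxin 1, 0.9954). The 6 libraries formed separate groups in these genes, so r mostly reflects the group difference and carries no p. The sizes differed: *Dhrs4* went from 13.4, 13.4 and 13.6 CPM to 15.3, 16.0 and 15.1 CPM, and *Ctsd* from 514, 534.5 and 510.5 CPM to 938, 1186 and 866 CPM.

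Other genes of the same pathways were read from 17 lists, with 159 genes, of which 152 were tested, 22 were called higher and 1 lower in the 5 libraries. The share called higher among all genes was the 2.45% given above, and most of the called genes were in lists of iron handling, A2 astrocyte genes, photoreceptors and immune cells. Of 5 other genes known to rise in astrocytes after any injury, 1 was called. *Steap4*, a metalloreductase, was higher by 1.15 ± 0.09 (SE) on the log2 scale, with an edgeR adjusted p of 3.72e-07. None of 11 tested genes of the A1 set, which astrocytes induce under inflammation, was called. *Ggta1*, an enzyme of glycan synthesis, had the largest log2 fold change of that set at 0.57, with an edgeR adjusted p of 4.6e-05 but under the fold threshold. Of 12 tested genes of the A2 set, which astrocytes induce after ischemia, 4 were called higher. They were *Cd109* at 1.49, *Ptx3* at 0.95, *Ptgs2* (cyclooxygenase 2) at 0.80 and *Emp1* at 0.73 on the log2 scale, and all had low levels of 1.33 to 6.91 CPM in the GFP group. With all 6 libraries, 1 of the 4, *Emp1*, was called, and in the 5 libraries the count was 2 without GFP replicate 1 and 0 without Ezh2 replicate 2.

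In the gp130, JAK and STAT3 pathway, 1 of 19 tested genes was called, and the list median was 0.02. The called gene was *Socs3*, the feedback inhibitor that STAT3 induces. It went from 103 ± 5.85 CPM (SD, n = 3) to 182.5 CPM in Ezh2 replicates 1 and 2 and 192 CPM in replicate 3, a log2 fold change of 0.83 ± 0.06 (SE, edgeR adjusted p = 6.19e-08). *Il6st* (gp130) and *Stat3*, named with their values known, were at -0.01 and 0.13, with edgeR adjusted p values of 0.948 and 0.0624. None of 6 other endothelin genes was called, and the largest log2 fold change was that of the ligand gene *Edn3*, at -1.17 with an edgeR adjusted p of 0.264 and at most 0.621 CPM in any library.

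Among the partners of *Timp1*, 10 matrix metalloproteinases and inhibitors were tested and 0 were called. *Mmp2* (gelatinase A) had the largest log2 fold change, 0.56, with an edgeR adjusted p of 0.0031. Among the partners of *Cd44* in hyaluronan metabolism and at the cell cortex, 0 of 9 tested genes were called. *Cemip*, which takes part in hyaluronan breakdown, was the farthest from 0 at -1.43, with an edgeR adjusted p of 0.0855 and under 1 CPM in every library.

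Genes of iron handling and the acute phase, the partners of *Lcn2* and *Cp*, had the largest share of called genes among the glial pathways in the 5 libraries. Of 12 tested, 7 were called higher and 0 lower, with a list median of 0.70, and 4 of the 7 were called with all 6 libraries. The count was 4 without Ezh2 replicate 2 in the 5 libraries, and 1 when any 1 GFP library was left out of the 6. The largest log2 fold changes were those of *Hp* (haptoglobin) at 1.20, *Slc40a1* (the iron exporter ferroportin) at 0.92, *A2m* (alpha-2-macroglobulin) at 0.85 and *Ftl1* (ferritin light chain) at 0.79. *Ftl1* went from 310.5 ± 6.34 CPM (SD, n = 3) to 533 CPM in Ezh2 replicates 1 and 2, with an edgeR adjusted p of 3.06e-07, and measured 456 CPM in replicate 3. *Slc40a1* did not hold in replicate 3, which at 6.98 CPM was at the control mean of 6.97 CPM. *Hp* had only 49 to 72 counts in the GFP libraries and was not called with all 6 libraries (edgeR adjusted p = 0.0697). Of 8 tested genes of the Müller cell injury response, 2 were called higher in both library sets, the immediate early genes *Fos* at 0.99 (edgeR adjusted p = 6.52e-09) and *Egr1* at 0.96 (edgeR adjusted p = 3.57e-08) on the log2 scale in the 5 libraries.

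**Figure D3:**
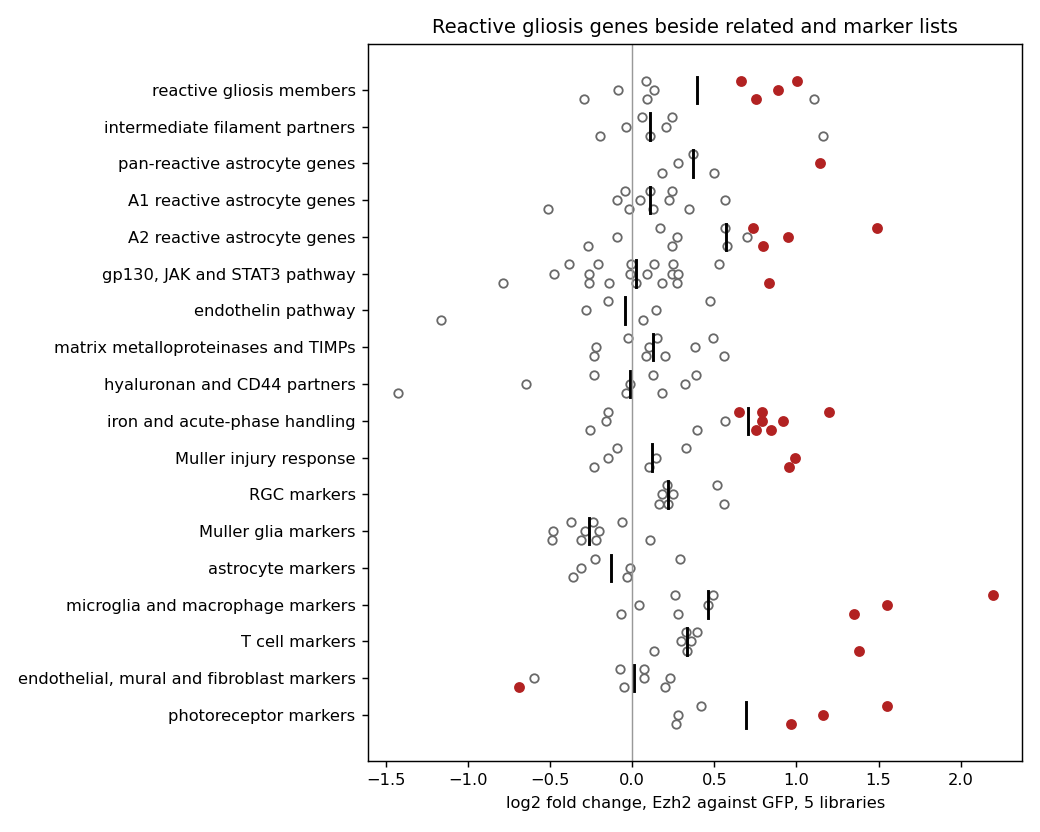
The log2 fold change (5 libraries, horizontal axis) of each tested gene, by list, with called genes in red, others open and the list median as a black bar. Among the 10 reactive gliosis genes 5 values lie between 0.66 and 1.11 and the other 5 between -0.30 (*Nes*) and 0.13, and 7 of 12 iron and acute-phase genes are red.

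Of the marker lists for cell types in the sort, some were lower in the Ezh2 libraries and others were higher. The 10 Müller glia markers summed to 28220 to 29140 CPM in the GFP libraries, 22940 to 23630 CPM in Ezh2 replicates 1 and 2, and 18400 CPM in replicate 3. In the 5 libraries 8 of the 10 were lower at an adjusted p under 0.05, with 0 past the fold threshold, a median of -0.26 and the largest log2 fold change at -0.49 for *Abca8a*, a membrane transporter, which was called lower in all 6. The count ratio of *Gfap* to *Glul* went from 0.0428 ± 0.000791 (SD, n = 3) in the GFP libraries to 0.107, 0.133 and 0.132 in Ezh2 replicates 1 to 3. This ratio was chosen after the values were seen, and *Glul* itself was lower, at -0.485 on the log2 scale in the 5 libraries. *Clu* at -0.064 and *Sox9* at 0.109 differed less, so the size of the ratio depends on the marker chosen. The 6 astrocyte markers summed to 1090 to 1173 CPM against 737 to 934 CPM, with 0 called. *Slc1a2*, a glutamate transporter, had the largest log2 fold change among them at -0.36, with an edgeR adjusted p of 7.74e-05. It made up most of the astrocyte sum, at 849, 838 and 904 CPM in the GFP libraries and 668, 666 and 514 CPM in the Ezh2 libraries. Each of the other astrocyte markers overlapped between the groups. *Pax2*, which defines astrocytes in the retina, was at 0.147 CPM per kb in the GFP group.

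The 9 microglia and macrophage markers summed to 1239 to 1404 CPM in the GFP libraries and 2102 to 3111 CPM in the 3 Ezh2 libraries. Of these, 3 were called higher, and they were *Lyz2* (lysozyme) at 2.20, *Ms4a7* at 1.55 and *Cd68* (a lysosomal protein of phagocytes) at 1.35 on the log2 scale. *Lyz2* alone made up most of the rise in the sum, from 374, 379.5 and 329 CPM to 1406, 1868 and 1223 CPM. In Ezh2 replicate 3, *Csf1r*, *Cx3cr1*, *Tmem119* and *P2ry12* were below every GFP library, whereas *Lyz2*, *Cd68*, *Ms4a7* and *Ccr2* were above. At an adjusted p under 0.05 alone, 7 of the 9 were higher in the 5 libraries and 3 in all 6. Among all genes tested, 1899 of 20241 were higher in this way in the 5 libraries and 538 of 19732 in all 6. Of the markers that resident microglia express, *Aif1* at 0.46 (edgeR adjusted p = 0.00341), *Cx3cr1* at 0.28 (0.00679) and *Csf1r* at 0.26 (0.00169) were higher by less than 1.5-fold, whereas *Tmem119* at 0.04 (0.715) and *P2ry12* at -0.07 (0.706) did not pass. The 7 T cell markers, of cells that also carry CD90.2, summed to 319 to 345.5 CPM in the GFP libraries, 441 and 416 CPM in Ezh2 replicates 1 and 2 and 715 CPM in replicate 3. In the 5 libraries 6 of the 7 were higher at an adjusted p under 0.05, and 1, *Cd8a* at 1.38, was past the fold threshold. The 6 photoreceptor markers summed to 91.5 to 109 CPM in the GFP libraries, 139.8 and 141 CPM in Ezh2 replicates 1 and 2 but 81.8 CPM in replicate 3. Of these, the cone genes *Opn1sw*, *Arr3* and *Gnat2* were called higher in the 5 libraries, at 0.97 to 1.55 on the log2 scale, with 1 called without Ezh2 replicate 1 and 0 in all 6.

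The 7 RGC markers summed to 125 to 129 CPM in the GFP libraries and 144 to 162 CPM in the Ezh2 libraries, with 0 called in the 5 libraries. The largest log2 fold change was 0.56 for *Nefl* (neurofilament light chain). It was called in all 6 at 0.585, at the threshold, and the count of RGC markers called higher in the 6 moved in 7 of 11 alternative settings. Most of this RGC sum was *Thy1*, the gene of the sort protein that T cells also carry. It measured 92.6, 87.2 and 90.3 CPM in the GFP libraries and 108.8, 98.9 and 113.8 CPM in the Ezh2 libraries. The 8 endothelial, mural and fibroblast markers summed to 403 to 462 CPM against 364 to 436 CPM, and *Col1a1* (collagen type I) was called lower at -0.69 in the 5 libraries and not in all 6. *Lcn2*, *Timp1* and *Cd44* are expressed by immune cells as well as by glia, and the part of these cell types in the results on the members was not tested. For the library that stood apart, Ezh2 replicate 3, the Müller glia, astrocyte, endothelial and photoreceptor sums were below the GFP range. Its RGC sum, its T cell sum and its microglia and macrophage sum were above that range. *Gfap*, *Serpina3n*, *Lcn2* and *Timp1* were also above it in this library, and how the sums relate to these genes was not tested.

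**Figure D4:**
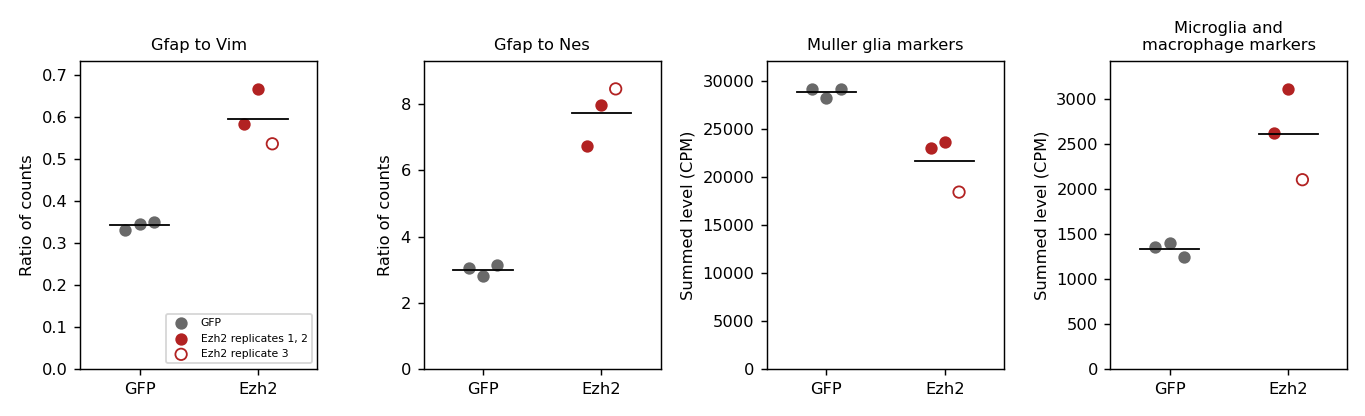
Ratios of *Gfap* to *Vim* and to *Nes* counts, and the summed levels in CPM of 10 Müller glia markers and 9 microglia and macrophage markers, in the GFP libraries (grey) and the Ezh2 libraries (red, replicate 3 open), with group means as lines. The *Gfap* to *Vim* ratio is at most 0.351 in the GFP libraries and at least 0.537 in the Ezh2 libraries, while the Müller glia sum is lower in every Ezh2 library. Most of the rise in the microglia and macrophage sum is *Lyz2*.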

How the data were processed

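Per the labels, total RNA was turned into stranded RNA-Seq libraries. The authors deposited 1 table of raw counts with a row for each Ensembl gene and a column for each of 6 libraries. The submitters' processing notes name STAR 2.7.0d and GRCm38, and the counting program and its strand setting are not given in the sources used here. Of 55573 identifiers, 55480 matched GENCODE M21, which gave symbols, coordinates and exon lengths.

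Counts were filtered (filterByExpr), scaled (TMM) and fitted with the edgeR 4.0.16 quasi-likelihood F test (R 4.3.3, limma 3.58.1), with two-sided p values and Benjamini-Hochberg adjustment. CPM used library totals, and likeness to *Gfap* used log2 of CPM plus 0.05. SE came from the F statistic. Members and lists were chosen with earlier results of these data known. The robust option of glmQLFit was tried, and used for a time as the main setting, after values of the default fit were seen, because it returned the gene totals of an earlier analysis. The default, as planned, is the main fit, and that return was made with both results known. One list symbol (*Trf*) was corrected after the files were seen. Some list genes are not reported here and entered no list count or sum. Named list genes were all called genes where at most 4 were called, otherwise the 4 largest changes, or the largest change where none was called. *Il6st*, *Stat3*, *Pax2*, *Glul*, *Pou4f1*, *Thy1*, *Sox9* and the microglia genes below the fold threshold were named with their values known. Counts of same-group libraries differed beyond sampling noise in every pair. Promoters came from RefSeq (10 of 10 members matched). Alternatives used all 6 libraries, left out single libraries, or took the replicate block, DESeq2 1.42.0, limma-voom, RLE factors, library totals, no filter and a mean of at least 50 counts. Pictures used matplotlib 3.10.9.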

Additional observations from a re-analysis of the deposited data

Results flagged for a closer look

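Ezh2 replicate 3 did not enter the 5-library comparison and was set beside the GFP libraries on its own. In 6 of the 10 genes its level, with the lower bound of its 95% Poisson counting interval, was above the highest GFP library. It measured 719.3 CPM for *Gfap* (highest GFP library 426), 528.6 CPM for *Serpina3n* (387), 346.7 CPM for *Lcn2* (271), 21.29 CPM for *Timp1* (16.2), 1339 CPM for *Vim* (1254) and 1.974 CPM for *Edn2* (0.948). The interval covers counting error only and not the spread between libraries. In 3 genes, *Nes*, *Cp* and *Osmr*, the same library was below every GFP library. This library stood apart from the others over all genes, and the part of that in these values was not tested. The share of all genes outside the GFP range in this library was not counted. The 6 and the 3 therefore cannot be read as particular to the members.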

How the results depend on the processing

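In the 5 libraries, leaving out 1 library at a time gave 2 to 4 called members, with 0 lower in each, and a median log2 fold change of 0.23 to 0.543, with the fewest calls and the lowest median without Ezh2 replicate 2, where *Lcn2* and *Serpina3n* were under the fold threshold, and the highest median without Ezh2 replicate 1. In the 6 libraries the range was 1 to 4 called members, with 0 lower in each, and a median of 0.296 to 0.456. Without GFP replicate 1 or GFP replicate 3, 1 member (*Gfap*) was called, and without GFP replicate 2 or Ezh2 replicate 2, 2 members (*Gfap* and *Timp1*). A filter at a mean of 50 counts took the median to 0.126, since *Edn2* was then not tested. Over 249 alternative values of single members, 230 kept their side of the call thresholds, 15 lost a call, 4 gained one, and 2 values of *Cp*, which was not called, changed sign. *Lcn2* lost its call with the robust option in the 5 libraries, and in the 6 with library totals alone (0.568). *Edn2* gained a call in the 5 libraries with limma-voom (adjusted p of 0.0457), no filter (0.0328) and the robust option (0.038), and in the 6 with DESeq2 (0.0243). Of 1275 values of the other lists, 83 moved by more than 1.5-fold in a count or by more than the median spread between replicates in a median.

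With the replicate number as a block, 4 members were called in the 5 libraries and 3 in the 6, where *Lcn2* had an adjusted p of 0.0597. Once the group means were taken out, libraries sharing a replicate number correlated between the groups at -0.00454, -0.0199 and -0.00991. Ezh2 replicate 3 stood apart from the other libraries and entered the Ezh2 mean. These correlations therefore cannot show whether the numbers pair the samples. Over all genes, the option raised calls from 754 to 770 in the 5 libraries and from 476 to 498 in the 6. In the 6 libraries DESeq2 called 938 genes and the block gave 274. Leaving out 1 library other than Ezh2 replicate 3 gave 93 to 386, whereas leaving out Ezh2 replicate 3 gives the 754 of the 5 libraries. The depth limits *Edn2*, with 15 to 71 counts.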
